A study of Mus musculus with 84 samples.

Results

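The 10 genes described here belong to the inflammatory response of fibroblasts and were followed through a study of mouse somatic reprogramming: the cytokine gene Il6, the chemokine genes Cxcl1, Cxcl5, Ccl2 and Ccl7, the prostaglandin synthase gene Ptgs2, the interleukin-1 antagonist gene Il1rn, the acute phase genes Saa3 and Lcn2, and the osteopontin gene Spp1. They were taken by name from the expression tables, which list 50692 genes, and all 10 were found once in each table. RNA was sequenced in 70 of the 84 samples, with 2 libraries in every group. The labels do not say whether the 2 libraries of a group came from separate cultures, so a p-value measures the spread between these libraries, which may be technical.

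The time course began with mouse embryonic fibroblasts (MEFs) that received retroviruses carrying Oct4, Sox2 and Klf4 together with a hairpin vector and puromycin selection, and all reprogramming cells shared these factors. The hairpins targeted luciferase (shLuc, the control), Ythdf2 or Ythdf3, whose products bind N6-methyladenosine in RNA, and cells were collected at days 1, 3, 5 and 7 in iCD1 medium (24 libraries). The same 3 hairpins were compared in MEFs at passage 2 in serum medium, in embryonic stem (ES) cells of strain CBA/CaJ X C57BL/6J and in induced pluripotent stem (iPS) cells, both kept in N2B27 medium with 2i and LIF (18 libraries). A hairpin against the transcription factor gene Tead2 was set against its own shLuc at day 1 (4 libraries). In the lifetime experiment, day 1 reprogramming cultures of the 3 arms received 10 µg/ml actinomycin D, an inhibitor of transcription, or its solvent DMSO for 4 h or 8 h (24 libraries). The labels give 1 hairpin name per target gene, so a hairpin and its target cannot be told apart. Chromatin accessibility was given as 1 ATAC-seq peak list per arm and day, and TEAD2 binding as 1 peak list at day 1.

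Fibroblasts are not only structural cells. Signals through interleukin-1, TNF and Toll-like receptors free NF-kappaB from its inhibitors, and with AP-1 and C/EBP factors it switches on genes for cytokines and chemokines, many of which make short-lived mRNAs. Il6 encodes interleukin-6, which signals through gp130 and STAT3. The products of Cxcl1 and Cxcl5 attract neutrophils through the receptor CXCR2, and those of Ccl2 and Ccl7 attract monocytes through CCR2. Ptgs2 encodes cyclooxygenase 2, which makes the precursor of the prostaglandins, and the product of Il1rn occupies the interleukin-1 receptor without signalling. Saa3 and Lcn2 encode acute phase proteins that bind lipids and siderophores, and Spp1 encodes a secreted matrix protein that is bound by integrins and CD44.

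Ccl2 and Ccl7 are neighbours on chromosome 11, with 8.3 kb between them, and Cxcl5 and Cxcl1 lie 129.6 kb apart on chromosome 5. The RefSeq promoter table of GRCm38.p6 held 7 of the 10 genes, without Cxcl5, Ccl2 and Ccl7. The promoters of Il6, Cxcl1, Ptgs2 and Il1rn are shown because they carry matches to binding motifs of the factors named above and because accessible sites or TEAD2 peaks described later lie at these starts. Each run ends at the base before the annotated start of a gene on the plus strand.

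In the first 2 lines the capitals mark matches to the kappaB consensus, the binding motif of NF-kappaB, in the 100 bases before Il6 (chr5:30013014-30013113) and Cxcl1 (chr5:90891145-90891244).
Il6: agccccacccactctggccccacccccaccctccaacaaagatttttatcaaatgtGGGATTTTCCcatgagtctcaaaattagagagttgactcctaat
Cxcl1: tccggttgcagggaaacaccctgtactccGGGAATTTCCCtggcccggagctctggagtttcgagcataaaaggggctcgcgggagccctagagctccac
In the next, before Ptgs2 (chr1:150099931-150100030), they mark matches to the C/EBP motif TTNNGNAA.
Ptgs2: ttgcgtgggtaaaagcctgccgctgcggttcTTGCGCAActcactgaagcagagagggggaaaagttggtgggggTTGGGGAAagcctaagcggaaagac
In the last, the 250 bases before the first start of Il1rn (chr2:24336610-24336859), they mark the AP-1 motif TGANTCA.
Il1rn: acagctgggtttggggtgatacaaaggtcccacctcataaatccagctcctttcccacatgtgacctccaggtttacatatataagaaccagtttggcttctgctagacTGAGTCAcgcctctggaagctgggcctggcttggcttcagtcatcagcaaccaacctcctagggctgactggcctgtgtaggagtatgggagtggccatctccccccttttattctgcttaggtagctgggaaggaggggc

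Both strands were searched for each motif over the 250 bases before every annotated start. The kappaB consensus was found in 2 of the 7 genes, against 8.23% of 27025 genes in the table, and both matches are the ones shown. The 2 matches in Cxcl1 overlap by all but 1 base. TGANTCA was found in 2 of 7, Il6 and Il1rn, against 7.82%. TTNNGNAA was found in 6 of 7, against 40.3%, and the TEAD motif GGAATG in 1 of 7, at another start of Il1rn, against 14.4%. The TATA box letters TATAAA were found in 1 of 7, Spp1, at positions -211 to -206, against 14.3%. Variants of these letters were not searched. A match describes the letters and no binding.

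Expression is given as TPM, a relative level that takes transcript length into account, and changes are differences of log2(TPM + 1) with their standard error, tested with limma over all genes of an experiment and called at a Benjamini-Hochberg adjusted p under 0.05. Such differences understate the change of genes at a few TPM. TPM keeps no read total, so the depth behind each value is unknown. Il6 and Saa3 overlap the annotated genes A230098N10Rik and Gm31882, and whether reads were counted by strand is not given in the sources used here, so reads of these pairs cannot be told apart. In the time course, mitochondrial transcripts made up 3.97 to 6.95% of TPM in the libraries numbered 1 and 7.58 to 14.9% in those numbered 2, and 14789 to 16443 genes reached 1 TPM in the first set and 13299 to 14885 in the second. Ythdf2 fell by 1.60 ± 0.265 on the log2 scale in the time course under its hairpin (adjusted p = 0.0034, limma), and also in ES cells, iPS cells and DMSO cultures, and Ythdf3 fell by 1.19 ± 0.259 (adjusted p = 0.0139) and also in MEFs, ES and iPS cells. The difference did not pass the test for Ythdf2 in MEFs (16.9 against 29.02 TPM, adjusted p = 0.071), for Ythdf3 in DMSO cultures (7.67 against 40.86 TPM, adjusted p = 0.0777) and for Tead2 under its own hairpin (33.67 against 92.48 TPM, adjusted p = 0.213). The fibroblast markers of the MEFs were present, with a summed level of 4392.74 to 4534.69 TPM in shLuc over 10 genes, against 11 to 19 TPM in ES cells.

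MEFs expressed 9 of the 10 genes, and pluripotent lines listed most of them at or near 0. In shLuc MEFs the levels in the 2 libraries were 1153.08 and 1110.28 TPM for Spp1, 134.36 and 116.16 TPM for Ccl2, 101.04 and 98.69 TPM for Cxcl5, 69.65 and 70.77 TPM for Ccl7. Spp1 was thus the most abundant of the 10 in these cells by a wide margin, and no gene's 2 values overlapped those of the next. Ptgs2 followed at 53.34 and 54.28 TPM, Cxcl1 at 57.99 and 41.87 TPM, whose range held both Ptgs2 values, and Saa3 at 40.66 and 39.33 TPM. Il6, at 4.83 and 4.92 TPM, and Lcn2, at 3.42 and 2.95 TPM, were low, and Il1rn was listed at 0.12 and 0 TPM. In the 12 ES and iPS libraries, Saa3 (10.35 to 27.1 TPM) and Spp1 (299.78 to 562.81 TPM) were the 2 genes that stayed above 2.36 TPM, the highest value reached by Ptgs2.

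All 9 genes tested were lower in ES cells than in MEFs, where 62.9% of all genes tested were called and 32.9% were called lower. All 9 were also lower in iPS cells, where the shares were 62.4% and 29.4%. Il1rn did not pass the filter on low values in this experiment and was not tested. The chemokine genes had the largest differences: in ES cells Ccl2 fell by 6.55, Cxcl5 by 6.43, Ccl7 by 5.91 and Cxcl1 by 5.45 on the log2 scale. For genes near 0 in ES cells the size of such a difference is bounded by the MEF level, so this order does not rank how completely they were lost. Ptgs2 fell by 5.09, Il6 by 2.55 and Lcn2 by 2.06, the last 2 from low levels in MEFs. Saa3 fell by 1.15 and Spp1 by 1.79, and the groups did not overlap for either. The median change over all genes was 0.00 for ES cells and 0.06 for iPS cells, and 0.09 and 0.12 after median-ratio scaling, which moved the split of all genes in ES cells from 5387 higher and 5918 lower to 6157 and 5149. Between the pluripotent lines, Spp1 was higher in iPS cells (530.81 and 524.71 TPM) than in ES cells (343.85 and 308.09 TPM), by 0.70 (adjusted p = 5.3e-05), and 20.3% of all genes were called, 2631 higher and 1011 lower, or 1822 and 1569 after median-ratio scaling. Ptgs2, at 0.85 and 2.36 TPM in iPS cells and 0.48 and 0.76 TPM in ES cells, did not pass (adjusted p = 0.0911), but did without the first shLuc iPS library (adjusted p = 0.0109).

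**Figure D1:**
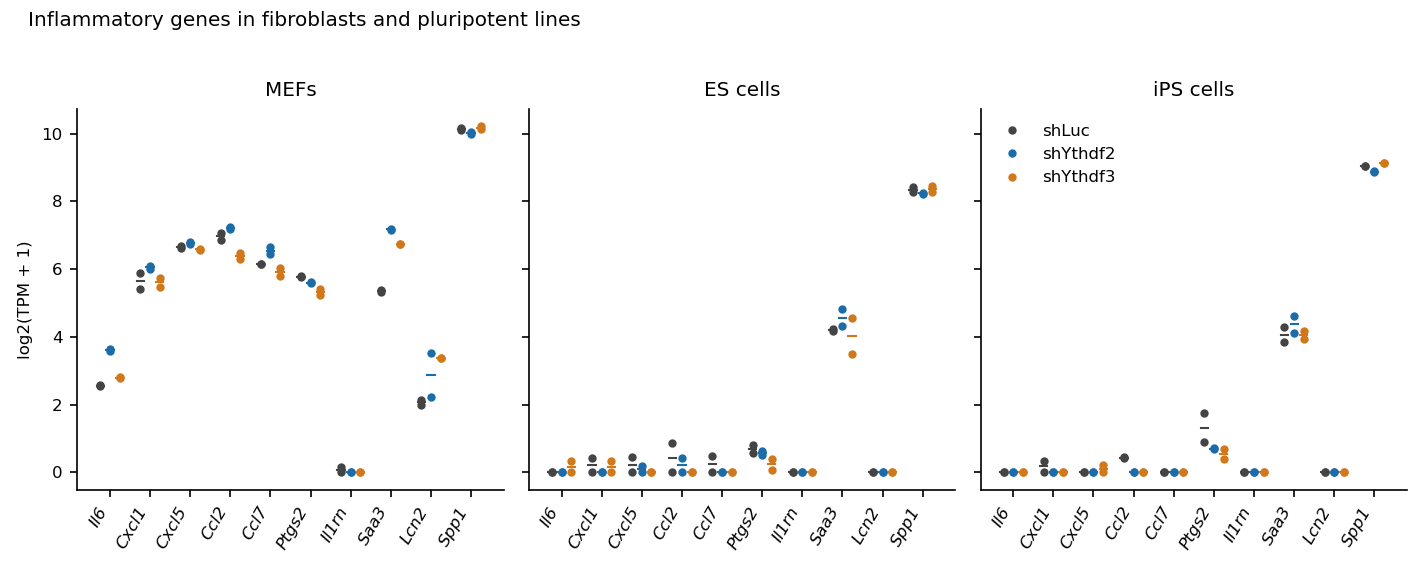
Level of each gene, as log2(TPM + 1), in MEFs, ES cells and iPS cells under 3 hairpins. Points are libraries (2 per group) and short lines are group means. All genes except Il1rn are raised off the axis in MEFs, while Spp1 and Saa3 alone keep a level above 2.36 TPM in the pluripotent lines.

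In the control arm of the time course, the 10 genes did not move together. Il1rn and Ptgs2 fell and Saa3 rose between day 1 and day 7, which makes 3 called genes of 10 where 6.83% of all genes tested were called (3.92% higher and 2.90% lower). Their median change was -0.80, beside 0.01 over all genes. Same-numbered libraries deviated together in this experiment, and a fit with replicate number as a block called 6 of the 10, adding Il6, Ccl2 and Ccl7, where that fit called 2350 of the 21303 genes tested.

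Il1rn, the antagonist, was at 54.16 and 63.98 TPM at day 1, 35.85 and 127.09 TPM at day 3, 11.23 and 9.96 TPM at day 5, and 0.29 and 0 TPM at day 7. Day 7 lay below every earlier library. The fall from day 1 to day 7 was 5.72 ± 0.735 on the log2 scale (adjusted p = 0.000126), and the adjusted p was 0.00308 at most when any 1 library of the pair of days was left out.

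Ptgs2, the prostaglandin synthase gene, was at 324.59 and 130.51 TPM at day 1, and between 14.88 and 52.18 TPM in the 6 later shLuc libraries. The 2 day 1 libraries differed widely from each other, but both were above all others. The fall to day 7 was 3.10 ± 0.54 (adjusted p = 0.00189). By day 3 it was already 2.15 (adjusted p = 0.0452, where 2.57% of all genes were called), a call lost without the first day 1 library (adjusted p = 0.364), the first day 3 library (0.192) or the second (0.147), and with no filter on low values (0.0691).

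Saa3 was listed at 0 and 14.49 TPM at day 1, 0 and 2.78 TPM at day 3, 46.86 and 52.5 TPM at day 5, and 45.89 and 127.62 TPM at day 7. Both late days lay above both early days in every library. The rise to day 7 was 4.30 ± 1.1 (adjusted p = 0.0259). This call was lost without the first day 1 library (adjusted p = 0.327), the first day 7 library (0.0501) or the second (0.211), and with a pseudocount of 0.1 TPM (0.0508). The step from day 3 to day 5 was 4.70 (adjusted p = 0.198, and 0.00929 with the replicate block), where 0.113% of all genes were called between these days without the block and 0.329% with it.

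The neighbouring genes Ccl2 and Ccl7 had differences of opposite sign between day 1 and day 7 in shLuc, and neither passed the test without the block. Ccl2 was at 80.15 and 104.88 TPM at day 1, 155.14 and 478.23 TPM at day 3, 220.96 and 430.05 TPM at day 5, and 152.87 and 234.61 TPM at day 7. Every later library lay above both day 1 libraries, with the second library the higher on each day. Ccl7 was at 132.39 and 210.37 TPM at day 1, 145.06 and 219.07 TPM at day 3, 95.26 and 199.24 TPM at day 5, and 59.47 and 73.06 TPM at day 7, where it no longer overlapped day 1. From day 1 to day 7 the Ccl2 difference was 1.04 ± 0.5 (adjusted p = 0.3, and 0.0246 with the block) and the Ccl7 difference was -1.33 ± 0.417 (0.0727, and 0.000106 with the block). From day 1 to day 3 the Ccl2 difference of 1.56 had an adjusted p of 0.145, of 0.00322 with the block, which called 5.07% of all genes, and of 0.0268 without the first day 3 library. From day 5 to day 7 the Ccl7 difference of -1.05 had an adjusted p of 0.977, and of 0.0209 with the block, where 0.0939% of all genes were called without it and 0.211% with it.

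The neutrophil chemokine genes and Il6 stayed low. Il6 was at 17.71 and 4.53 TPM at day 1 and at 0 to 2.79 TPM in the 6 later shLuc libraries. Its differences from day 1 were -2.88 at day 3 (adjusted p = 0.0874, and 0.0452 with the block) and -2.67 at day 7 (0.0643, 0.0383 with the block and 0.047 after median-ratio scaling). Cxcl1 ranged from 1.62 to 21.1 TPM in shLuc, highest at day 1, and Cxcl5 from 0.58 to 9.26 TPM. Lcn2 was listed at 0 in 7 of the 8 shLuc libraries and reached 2.12 TPM at most in the time course. Spp1 held its level, from 97.5 to 226.7 TPM over all 8 shLuc libraries, and its difference between day 7 and day 1 was -0.28 ± 0.321 (adjusted p = 0.784).

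**Figure D2:**
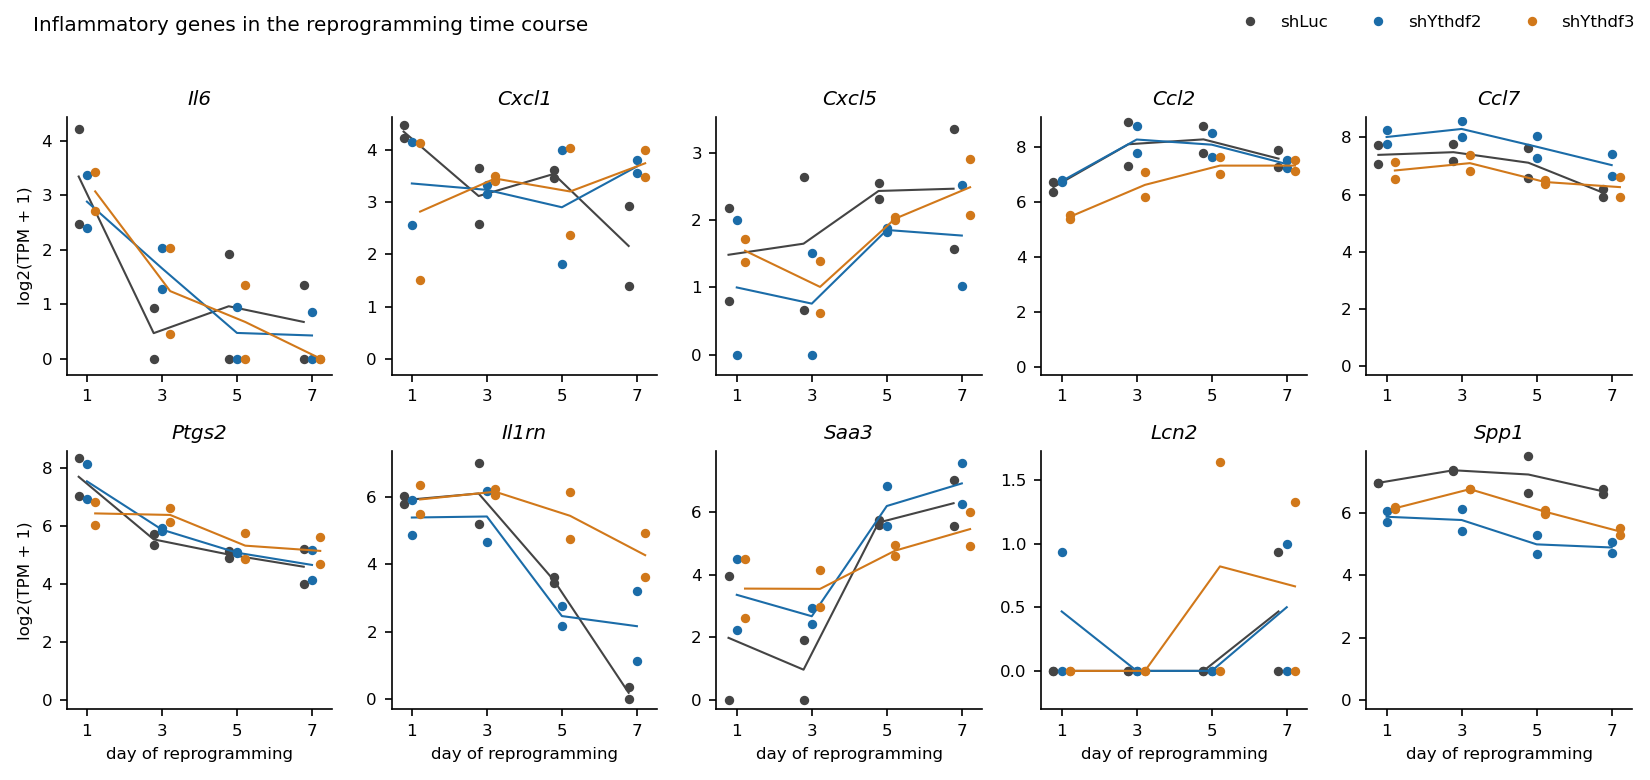
Level of each gene, as log2(TPM + 1), on days 1, 3, 5 and 7 of reprogramming in the shLuc, shYthdf2 and shYthdf3 arms. Points are libraries (2 per group) and lines join group means. The shLuc points of Il1rn end at 0.29 and 0 TPM while those of shYthdf3 end at 11.33 and 29.21 TPM, and the Spp1 points of both knockdown arms lie below shLuc on each day.

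Over the same days the fibroblast markers fell from a summed 2446.33 to 2729.87 TPM at day 1 to 819 to 971.15 TPM at day 7 in shLuc. Col1a2 and Col1a1 were called lower among 10, and 7 of 8 pluripotent cell markers were called higher, where 6.83% of all genes tested were called. Macrophage markers summed to 27.08 to 145.59 TPM in the 24 libraries over the 13 of them with 1 row in the table, and none of the 14 tested was called between day 7 and day 1. Laptm5, at 12.99 to 103.5 TPM, and Cd68, at 4.69 to 58.26 TPM, were detected in every library, and Lyz2 reached 26.79 TPM. In the cell lines Laptm5 reached 80.71 TPM and Cd68 19.79 TPM, while Tyrobp, C1qa and C1qb were listed at 0 in all 18 libraries. There the list summed to 72.74 to 88.41 TPM in shLuc ES cells and 7.04 to 11.9 TPM in shLuc MEFs. Levels of Laptm5 and Cd68, and this sum, are thus no measure of macrophages by themselves. In the time course Tyrobp was listed at 0 in 20 of 24 libraries, C1qa in 19, Aif1 in 22, and Adgre1 and Spi1 in 16 each, although Tyrobp reached 15.66 TPM. At day 1, up to 9 of the 13 markers reached 1 TPM in a library of shLuc and up to 10 in one of shYthdf2. The part of these shifts in the levels of the 10 genes was not tested. In such bulk samples fewer expressing cells and less RNA per cell cannot be told apart.

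Spp1 was lower in both knockdown arms on every day. In shYthdf2 it was at 65.57 and 51.56 TPM at day 1, 69.59 and 41.88 TPM at day 3, 24.89 and 38.47 TPM at day 5, and 32.57 and 25.49 TPM at day 7. In shYthdf3 it was at 68.8 and 72.15 TPM, 108.04 and 108.87 TPM, 62.28 and 68.45 TPM, and 38.69 and 44.73 TPM on the same days. Neither arm overlapped shLuc on any day. Averaged over the 4 days, Spp1 fell by 1.69 ± 0.16 in shYthdf2 (adjusted p = 5.48e-05) and by 0.98 ± 0.16 in shYthdf3 (adjusted p = 0.00203), and neither call was lost when any 1 of the 16 libraries was left out. The 2 arms share the shLuc libraries. Set directly against shYthdf3, shYthdf2 was lower by a log2 difference of -0.71 (adjusted p = 0.0141).

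The fall of Spp1 was not seen in MEFs, where its level was 1070.38 and 1013.23 TPM in shYthdf2 and 1125.51 and 1195.91 TPM in shYthdf3 beside 1153.08 and 1110.28 TPM in shLuc. The differences there were -0.12 ± 0.0667 (adjusted p = 0.556) and 0.04 ± 0.0667 (adjusted p = 0.968). A joint fit of the time course and the MEFs, added after the values were seen, tested the change of effect. For shYthdf2 the time course effect minus the MEF effect was -1.57 ± 0.276 (adjusted p = 0.0114, where 0.156% of all genes were called). That call was lost without either MEF library of shLuc (adjusted p = 0.0683 and 0.0865) or of shYthdf2 (0.0637 and 0.106). For shYthdf3 it was -1.01 ± 0.276 (adjusted p = 0.189, where 0.173% of all genes were called), and the adjusted p was 0.0144 without the first shLuc library of day 5. In the DMSO cultures of day 1, Spp1 was at 54.2 to 101.19 TPM in shLuc, 28.54 to 66.3 TPM in shYthdf2 and 43.27 to 73.77 TPM in shYthdf3, so the groups overlapped. Within each replicate number both knockdown arms lay below shLuc at both hours. The differences of -0.83 and -0.56 had adjusted p-values of 0.683 and 0.736, and of 0.00616 and 0.0412 with the replicate block, which called 1.71% and 3.82% of all genes.

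Ccl2 fell under shYthdf3, and Ccl7 lay above its control under shYthdf2 but passed the test only with the replicate block or without 1 control library. In shYthdf3, Ccl2 was at 40.89 and 44.99 TPM at day 1, 70.77 and 133.18 TPM at day 3, 128.57 and 195.36 TPM at day 5, and 136.97 and 183.58 TPM at day 7. It lay below shLuc without overlap at days 1, 3 and 5, and overlapped it at day 7. Over the 4 days Ccl2 fell by 0.94 ± 0.25 (adjusted p = 0.0393). This is 1 of 3 genes called in shYthdf3, with Spp1 and Il1rn, where 5.26% of all genes were called. The call was lost with no filter (adjusted p = 0.0582), after median-ratio scaling (0.0896), and without any 1 of 11 of the 16 libraries (0.0502 to 0.0972): either day 1 library of either arm, the second shLuc library of days 3, 5 and 7, the first shYthdf3 library of days 3 and 5, and either shYthdf3 library of day 7. In shYthdf2 the Ccl2 difference from shLuc was 0.00 ± 0.25. The summed fibroblast markers differed between the arms as well: at day 3 they were at 1227.82 to 1425.95 TPM in shYthdf3, 1745.4 to 2514.9 TPM in shLuc and 2497.27 to 3306.25 TPM in shYthdf2, and at day 1 at 1684.31 to 2370.58, 2446.33 to 2729.87 and 3095.36 to 3602.12 TPM. Of the 10 markers, 3 were called lower over the 4 days in shYthdf3 and 1 was called higher in shYthdf2. At day 5 shYthdf2, at 1199.54 to 1299.71 TPM, lay above the other arms, and at day 7 the arms overlapped. The part of these shifts in the Ccl2 and Ccl7 values was not tested.

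Ccl7 in shYthdf2 was at 216.42 and 307.49 TPM at day 1, 258.68 and 380.61 TPM at day 3, 155.22 and 267 TPM at day 5, and 100.04 and 169.03 TPM at day 7. It was above shLuc in all 8 same-numbered pairs, and the groups did not overlap at days 1, 3 and 7. The difference of 0.74 ± 0.208 had an adjusted p of 0.0656, of 0.000108 with the replicate block and of 0.0369 without the second shLuc library of day 5. With the block, shYthdf2 had 2 genes called in place of 1, where 3.54% of all genes were called without it and 7.55% with it. In shYthdf3, Ccl7 ranged from 59.25 to 165.33 TPM, and its difference was -0.35 ± 0.208 (adjusted p = 0.422, and 0.0182 with the block, which called 10.5% of all genes). Between the knockdown arms 4 of the 10 genes were called, where 7.01% of all genes were: Ccl7 was 1.09 ± 0.208 higher in shYthdf2 (adjusted p = 0.00483), Ccl2 0.94 ± 0.25 higher (0.0324), and Il1rn and Spp1 were lower. The Ccl2 call was lost after median-ratio scaling (0.0734) and without any 1 of 9 libraries (0.0592 to 0.086): either day 1 and the second day 3, 5 or 7 library of shYthdf2, and the first shYthdf3 library of days 1, 3, 5 and 7.

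The ratio of the 2 neighbours is read within a library, where a common scaling cancels. The ratio of Ccl2 to Ccl7 in shLuc was 0.605 and 0.499 at day 1, 1.07 and 2.18 at day 3, 2.32 and 2.16 at day 5, and 2.57 and 3.21 at day 7. It was lower than in the same-numbered shLuc library in 8 of 8 pairs of shYthdf2 and 7 of 8 of shYthdf3. The log2 ratio differed from shLuc by -0.74 in shYthdf2 (SD over 4 days 0.32, adjusted p = 0.00926) and by -0.59 in shYthdf3 (SD 0.35, adjusted p = 0.00926). These are two-sided exact permutation tests within days over 1296 arrangements, chosen after the values were seen and adjusted over 4 such tests. In the DMSO cultures the differences were -0.92 and -1.30, lower in 4 of 4 pairs of each arm, with an exact permutation p of 0.0556, the smallest that 36 arrangements allow. The shared shLuc libraries enter both arms. In MEFs the ratio was 1.93 and 1.64 in shLuc, 1.51 and 1.67 in shYthdf2, and 1.41 and 1.36 in shYthdf3.

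**Figure D3:**
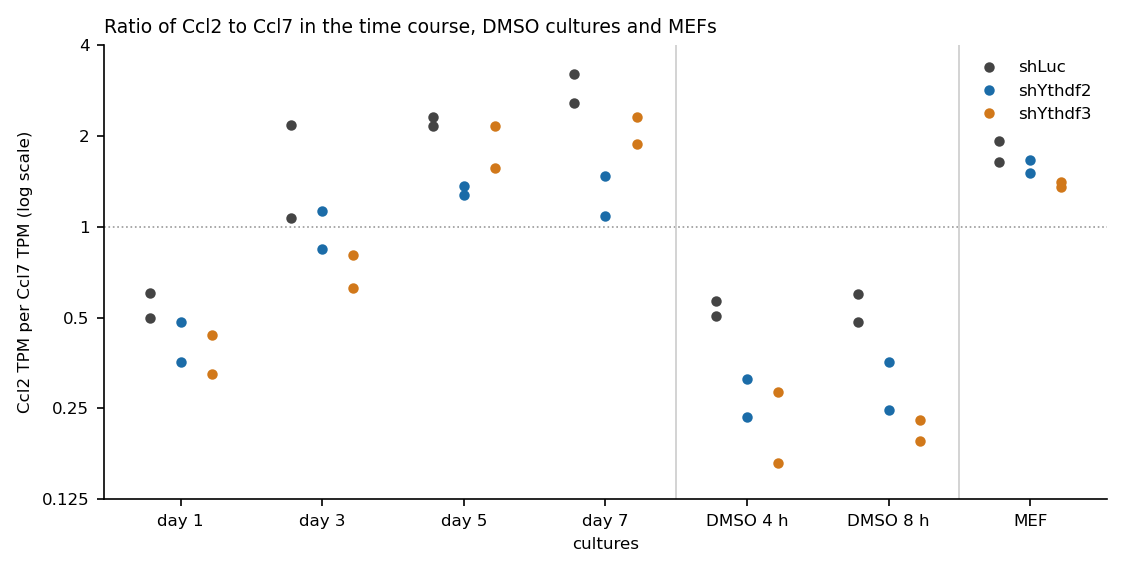
Ccl2 TPM divided by Ccl7 TPM in each library, on a log axis, for the time course, the DMSO cultures of day 1 and MEFs. Points are libraries (2 per group) coloured by hairpin, and the dotted line marks equal levels. The shLuc points rise from 0.605 and 0.499 at day 1 to 2.57 and 3.21 at day 7, and the knockdown points lie mostly below them.

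In the DMSO cultures Ccl2 again lay below shLuc in shYthdf3. In shYthdf2 it was at 70.19 and 75.16 TPM after 4 h and 68.11 and 93.85 TPM after 8 h, overlapping shLuc. It was at 106.16 and 57.94 TPM after 4 h and 95.51 and 88.79 TPM after 8 h in shLuc, and at 31.12, 28.53, 32.18 and 29.59 TPM in shYthdf3, below every shLuc library. The difference of -1.46 ± 0.341 had an adjusted p of 0.0695, and of 0.0124 with the replicate block. Ccl7 in shYthdf2 was at 299.81, 240.37, 276.63 and 263.2 TPM, against 102.29 to 209.48 TPM in shLuc, with no overlap. Its difference of 0.76 ± 0.225 had an adjusted p of 0.261, and of 0.04 with the block. With the block 2 genes were called in each arm, where 1.71% of all genes were called in shYthdf2 and 3.82% in shYthdf3. Without it none was, where 0.342% and 0.700% of all genes were called. Without the block, 2 of the 10 genes in shYthdf2 and 1 in shYthdf3 had an unadjusted p under 0.05. Several macrophage markers were more often detected in the 24 lifetime libraries than in the time course. Tyrobp and Adgre1 were each listed at 0 in 1 library, C1qb in 2, C1qa in 9 and Aif1 in 13, and Lyz2 was at 12.68 to 68.01 TPM. Mrc1 was less often detected, listed at 0 in 6 lifetime libraries against 3 of the time course, and Ptprc was at 0 in 3 of each. Laptm5 reached 26.38 TPM in the lifetime libraries and 103.5 TPM in the time course. The list summed to 51.95 to 127.02 TPM in DMSO cultures of shYthdf3 at 4 h and 54.2 to 92.14 TPM in those of shLuc. Their part in the levels of the 10 genes was not tested.

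Il1rn was higher in the shYthdf3 arm, late in the time course. It was at 44.11 and 80.83 TPM at day 1, 65.97 and 74.82 TPM at day 3, 69.18 and 25.81 TPM at day 5, and 11.33 and 29.21 TPM at day 7. It overlapped shLuc at days 1 and 3 and lay above it at days 5 and 7. The mean rise over 4 days was 1.52 ± 0.368 (adjusted p = 0.0248), with daily differences of 0.02, 0.05, 1.91 and 4.09. The call was lost without any 1 of 8 of the 16 libraries (adjusted p = 0.0518 to 0.0646): the first of shLuc at days 1 and 3, the second of shLuc at days 5 and 7, the first of shYthdf3 at day 5, and the second of shYthdf3 at days 1, 3 and 7. The change of the effect from day 1 to day 7 was 4.07, with an adjusted p of 0.301, and no gene of any kind was called by limma in that comparison, although 3 of the 10 and 1442 of all genes had an unadjusted p under 0.05. The same change in shYthdf2 was 2.49 (adjusted p = 1), where none of the 10 was called, 1 had an unadjusted p under 0.05, and 0.00469% of all genes were called. In shYthdf2, Il1rn ended at 1.19 and 8.14 TPM at day 7, also above both shLuc libraries. Its daily differences from shLuc in that arm were -0.52, -0.68, -1.07 and 1.98, and the mean difference was -0.07 ± 0.368. Set directly against shYthdf3, shYthdf2 was lower by a log2 difference of -1.59 (adjusted p = 0.0158). In the DMSO cultures Il1rn ranged over both hours from 8.37 to 49.63 TPM in shLuc and from 18.33 to 88.36 TPM in shYthdf3. The second library was the higher at each hour in both arms, and no difference passed.

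Saa3 and Il6 differed between arms in MEFs. Saa3 was at 40.66 and 39.33 TPM in shLuc, 143.12 and 143.73 TPM in shYthdf2 and 105.93 and 105.35 TPM in shYthdf3. Il6 was at 4.83 and 4.92 TPM, 10.92 and 11.41 TPM, and 5.84 and 6.06 TPM in the same order. Neither gene had overlapping groups. In shYthdf2 MEFs Saa3 rose by 1.82 ± 0.289 (adjusted p = 0.0115) and Il6 by 1.05 ± 0.162 (adjusted p = 0.0104), 2 called genes of 9 tested where 1.46% of all genes were called. Each call was lost without either shLuc MEF library or the second shYthdf2 MEF library (Saa3: 0.0643, 0.0925 and 0.0691; Il6: 0.0644, 0.0845 and 0.0691), and that of Il6 also with a pseudocount of 0.1 TPM (0.428). In shYthdf3 MEFs limma called 0 of 9, while 3 had an unadjusted p under 0.05, and 0.628% of all genes were called. Median-ratio scaling moved the split of all genes in MEFs from 87 higher and 175 lower to 80 and 107 in shYthdf2, from 18 and 95 to 14 and 32 in shYthdf3, and from 103 and 73 to 71 and 80 between the knockdown arms. Saa3 in shYthdf3 MEFs differed by 1.38 ± 0.289 (adjusted p = 0.0625), Lcn2 by 1.31 ± 0.307 (0.0826; 9.39 and 9.39 TPM against 3.42 and 2.95 TPM) and Ccl2 by -0.58 ± 0.236 (0.31). Il6 was higher in shYthdf2 than in shYthdf3 MEFs by 0.81 (adjusted p = 0.042, where 0.979% of all genes were called), a call lost without any 1 of the 4 libraries (0.0601 to 0.194), after median-ratio scaling (0.0631) and with a pseudocount of 0.1 TPM (0.53).

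In the time course Saa3 was not called in either arm. It ranged from 3.64 to 187.21 TPM in shYthdf2 and from 5.09 to 62.74 TPM in shYthdf3, and the mean differences were 1.06 ± 0.55 (adjusted p = 0.405) and 0.61 ± 0.55 (0.642). Both day 7 libraries of shYthdf2, at 76.09 and 187.21 TPM, lay above the same-numbered shLuc libraries, and both of shYthdf3, at 29.09 and 62.74 TPM, below them. In ES and iPS cells neither hairpin gave a called member. Of all genes, 3.65% were called in shYthdf2 and 1.64% in shYthdf3 ES cells, and 2.48% and 2.89% in iPS cells. In these 4 comparisons the members with an unadjusted p under 0.05 numbered 0 and 0 in ES cells, and 2 and 1 in iPS cells, for shYthdf2 and shYthdf3. Leaving out the first shLuc iPS library made Ptgs2 called in shYthdf3 iPS cells (adjusted p = 0.0315), at levels of 0.31 to 2.36 TPM. The ES effect minus the MEF effect of a hairpin was called for none of 9 members in either arm, while 3 had an unadjusted p under 0.05 for shYthdf2 and 2 for shYthdf3, and 1.17% and 0.734% of all genes were called. For Il6 and shYthdf2 it was -1.05 (adjusted p = 0.0523, and 0.0498 after median-ratio scaling). Lcn2 passed for shYthdf2 without the second shYthdf2 MEF library (0.0324), and Saa3 for shYthdf3 without the first shYthdf3 ES library (0.0189).

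**Figure D4:**
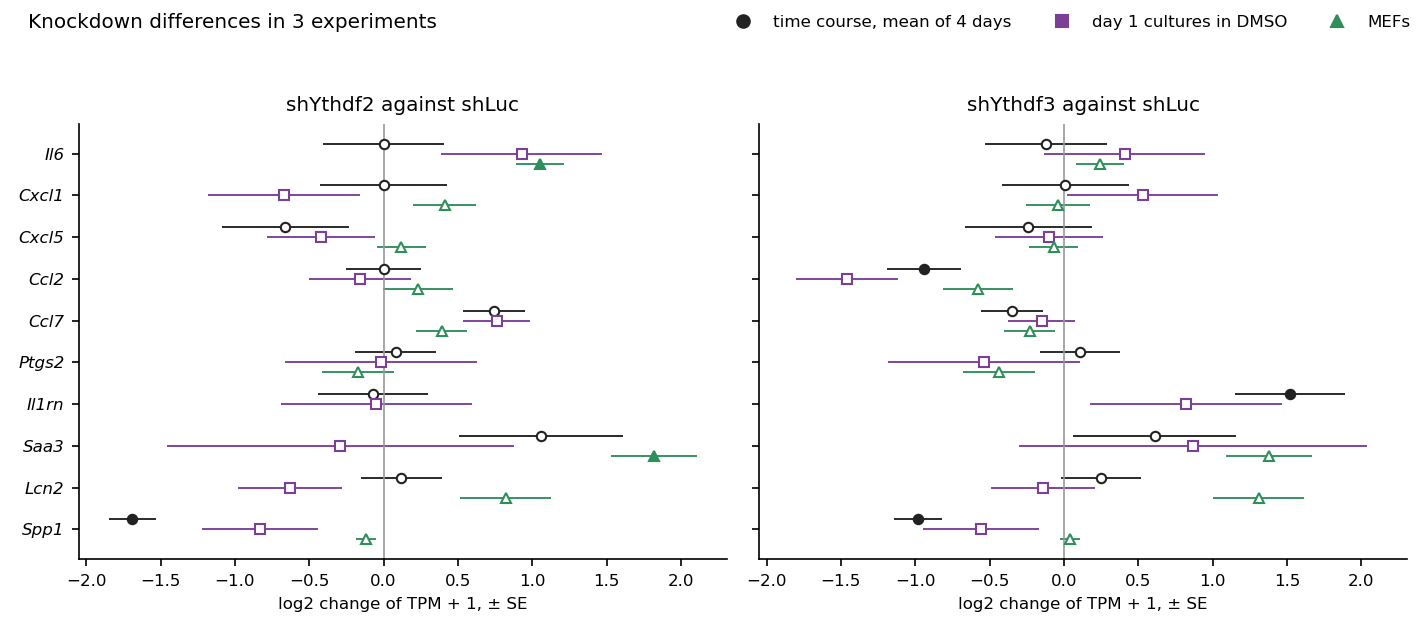
Log2 change of TPM + 1 with its standard error for each gene in shYthdf2 (left) and shYthdf3 (right) against shLuc, for the mean of 4 days of the time course, the DMSO cultures of day 1 and MEFs. Filled symbols passed an adjusted p under 0.05 and open ones did not. Spp1 is at -1.69 and -0.98 in the time course but near 0 in MEFs, and Saa3 is at 1.82 in shYthdf2 MEFs.

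The remaining inducible genes showed no called difference over the 4 days. Ptgs2 in shYthdf3 was at 113.43 and 64.21 TPM at day 1, below 324.59 and 130.51 TPM in shLuc, and at 69.97 and 96.68 TPM at day 3, above 39.63 and 52.18 TPM. The order of the arms thus turned between these days, and the mean difference was 0.11 ± 0.27 (adjusted p = 0.897). Cxcl5 (0 to 6.46 TPM in the knockdown arms) and Il6 (0 to 9.76 TPM) overlapped shLuc on most days. Cxcl1 (1.85 to 16.82 TPM in the knockdown arms) lay below both shLuc libraries at day 1 and above both at day 7, in each arm. Its differences from shLuc were -0.99 at day 1 and 1.52 at day 7 in shYthdf2, and -1.53 and 1.58 in shYthdf3. The mean differences of Cxcl1, Cxcl5 and Il6 over the 4 days lay between -0.66 and 0.01 with adjusted p-values of 0.536 to 1.

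Ccl7 was lower after actinomycin D than after DMSO in the control arm. Ccl7 was at 209.48 and 102.29 TPM after 4 h of DMSO and 66.1 and 46.04 TPM after 4 h of actinomycin D, and at 198.07 and 147.81 TPM against 49.64 and 48.51 TPM at 8 h. The groups did not overlap at either time. It fell by 1.39 ± 0.318 at 4 h (adjusted p = 0.00793) and by 1.78 ± 0.318 at 8 h (adjusted p = 0.00049), 1 called gene of 10 at each time, where 12.9% and 30.0% of all genes were called. The median of all genes moved by -0.31 at 4 h and -0.63 at 8 h, and Ccl7 lay 1.08 and 1.15 log2 units below that median. After median-ratio scaling the adjusted p of Ccl7 was 0.198 at 4 h and 0.147 at 8 h, so neither call held. That scaling takes out a fall shared by most genes, so it asks only whether Ccl7 fell further than most. With it the split of all genes moved from 79 higher and 2402 lower to 306 and 1234 at 4 h, and from 294 and 5494 to 1970 and 2671 at 8 h. The 4 h call was also lost without the first DMSO library (0.115) or the second actinomycin D library (0.0797) of that time.

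Ccl2 went from 106.16 and 57.94 TPM to 33.56 and 30.2 TPM at 4 h, and from 95.51 and 88.79 TPM to 42.51 and 37.25 TPM at 8 h. The groups did not overlap, and the differences of -1.28 and -1.19 had adjusted p-values of 0.105 and 0.0762, and of 0.0422 and 0.0338 with the replicate block. Spp1 had the higher TPM after actinomycin D at 4 h, with 96.68 and 159.43 TPM against 54.2 and 100.42 TPM in DMSO. Its difference of 0.74 had an adjusted p of 0.471, and of 0.0149 with the block. TPM is relative and the median of all genes moved by -0.31 at 4 h, so this does not show a gain of Spp1 RNA. With the block, 3 genes were called at 4 h and 2 at 8 h, where 22.5% and 42.6% of all genes were called. Ptgs2 moved in opposite directions in the 2 replicate numbers, from 44.32 to 20.9 TPM in the first and from 59.07 to 81.21 TPM in the second at 4 h. Cxcl5, at 2.28 and 0 TPM in DMSO and 0.17 and 0 TPM after 8 h of actinomycin D, was called when the second DMSO library was left out (adjusted p = 0.0393).

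Whether a transcript outlasted the block of transcription differently in a knockdown was read as the response to actinomycin D in that arm less the response in shLuc. This persistence was not called for any of the 10 genes in either arm by limma. In shYthdf2, 1 of the 10 had an unadjusted p under 0.05 and in shYthdf3 none had, and 0.0156% and 0.00518% of all genes were called. The gene was Il6, with a difference of -1.83 ± 0.765 (adjusted p = 1) at levels of 0 to 4.26 TPM. For Ccl7 in shYthdf2 the persistence was 0.53 ± 0.318, from 130.24, 166.81, 112.95 and 113.8 TPM after actinomycin D, and for Spp1 it was -0.09 ± 0.55. DMSO libraries of 8 h and 4 h gave no called member in shLuc (0 with an unadjusted p under 0.05), where 0.0104% of all genes were called.

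**Figure D5:**
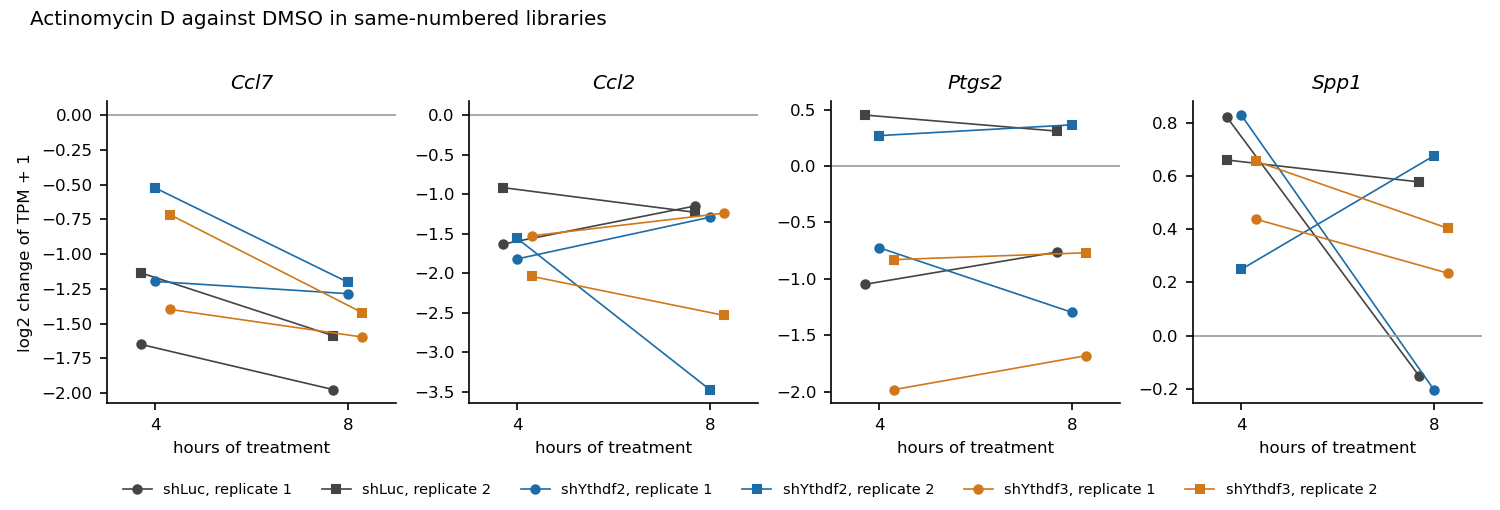
Log2 change of TPM + 1 from DMSO to actinomycin D after 4 h and 8 h for Ccl7, Ccl2, Ptgs2 and Spp1, with 1 line per replicate number in each arm, between same-numbered libraries. Every Ccl7 and Ccl2 point lies below 0, while Ptgs2 points of shLuc lie on both sides of it. The vertical scales differ between panels.

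The Tead2 hairpin gave no called member of 9 tested, where 0.0879% of all genes were called, with 2 of the 9 at an unadjusted p under 0.05. Cxcl1 went from 4.87 and 6.41 TPM in shLuc to 71.42 and 23.78 TPM in shTead2 without overlap, a difference of 2.68 ± 0.534 (adjusted p = 0.456). Spp1 went from 96.57 and 113.16 TPM to 159.27 and 134.95 TPM, a difference of 0.48 ± 0.147 (adjusted p = 0.68). Ccl2 was at 101.63 and 110.76 TPM in shLuc and 266.19 and 117.95 TPM in shTead2. Without the second shTead2 library, which leaves a single library assumed to vary like the shLuc pair, Cxcl1 and Ccl2 were called (adjusted p = 0.024 and 0.026). Markers of neutrophils, the cells that CXCL1 attracts, summed to 1.26 to 8.12 TPM in shLuc and 40.54 to 64.6 TPM in shTead2. Most of that sum was Ltf, at a mean of 4.19 TPM in shLuc and 35.19 TPM in shTead2, and S100a8, listed at 0 in shLuc and at a mean of 16.68 TPM in shTead2, which was called higher by 4.14 (adjusted p = 0.0428). S100a9 and Elane were listed at 0 in all 4 libraries, Ly6g reached 0.47 TPM at most, and Mpo was listed at 0 in both shTead2 libraries. The macrophage markers summed to 39.07 to 43.15 TPM in shLuc and 26.49 to 133.87 TPM in shTead2. The endothelial markers summed to 17.02 to 17.33 TPM in shLuc and 99.43 to 210.08 TPM in shTead2. Cdh5 went from a mean of 0.3 TPM in shLuc to 75.41 TPM in shTead2, and Tek from 13.67 to 15.18 TPM. All 6 endothelial markers had a positive difference, with a median of 3.01. Their part in the Cxcl1 values was not tested.

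At the chromatin level, 5 of the 7 genes with an annotated promoter had an ATAC-seq peak within 1 kb of a start in at least 1 list. In shLuc 5 had one at day 1, 4 at day 3, 4 at day 5 and 3 at day 7, beside 57.7 to 60.6% of 17491 genes. There was 1 list per arm and day, so no difference was tested, and the list sizes ranged from 43725 to 78260 peaks. Over the gene and the 1 kb on either side, a measure added after the values were seen, Il1rn had an accessible site in every list except shLuc and shYthdf2 at day 7. The shYthdf3 site at day 7 (chr2:24336732-24336891) covers the end of the Il1rn promoter shown above. These are the day and arm at which the Il1rn level was 11.33 and 29.21 TPM, against 0.29 and 0 TPM in shLuc and 1.19 and 8.14 TPM in shYthdf2. The shYthdf2 list of day 7 held 75558 peaks, more than the 51694 of shLuc and the 52389 of shYthdf3. Spp1 had a site in 2 lists, shLuc day 1 (chr5:104435005-104435120) and shYthdf2 day 1, and none later, while its TPM in shLuc held. Saa3 had a site in shYthdf2 at day 7 alone, and Lcn2 in none. Il6, Ptgs2, Ccl2 and Ccl7 had a site in all 12 lists, Cxcl1 in 11 and Cxcl5 in 8, with the 4 lists of the knockdown arms at days 1 and 3 without one, where 47.0 to 53.3% of genes under 15 kb had one.

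TEAD2 peaks lay within 1 kb of a start of 2 of the 7 genes, Ptgs2 (chr1:150099900-150100157) and Cxcl1 (chr5:90891112-90891437), where 18.3% of all genes had one. The peaks cover the whole of the Ptgs2 and Cxcl1 promoter runs shown above, including the C/EBP and kappaB matches in capitals. Neither run contains the TEAD motif GGAATG. Ptgs2 was at 44.49 and 47.95 TPM in shLuc and 31.06 and 42.65 TPM in shTead2 (a difference of -0.34, adjusted p = 0.759).

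Genes of the surrounding pathway were read from lists that hold no member. Between day 7 and day 1 in shLuc, 6.83% of all genes tested were called (3.92% higher and 2.90% lower). In that comparison 0 of 17 NF-kappaB subunits and feedback inhibitors were called (4 had an unadjusted p under 0.05), 1 of 16 genes of interleukin-1, TNF and Toll-like receptor signalling was, and 1 of 11 of the interleukin-6 pathway. The first was Irak3, an inhibitor of Toll-like receptor signalling, which rose by 1.91 (adjusted p = 5.59e-05), and the second was Cebpd, a C/EBP factor, which fell by 0.99 (adjusted p = 0.0178). Of 24 other inflammatory genes 3 rose and 2 fell: the chemokine gene Ccl8 rose from 2.55 to 39.31 TPM and the adhesion gene Icam1 from 3.285 to 13.57 TPM, while Vcam1, another adhesion gene, fell from 327.4 to 20.96 TPM and Cxcl12 from 24.42 to 2.445 TPM. Among 9 receptors of the proteins encoded here, the osteopontin receptor genes Itgb1 (from 628 to 152.8 TPM), Cd44 (from 156.6 to 56.48 TPM) and Itgb5 fell and the lipocalin receptor gene Slc22a17 rose. None of 12 factors of AU-rich element decay was called (1 had an unadjusted p under 0.05), and none of 10 prostaglandin genes was (2 had).

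Under the hairpins the called genes of these lists were as follows. In shYthdf2 over 4 days, where 3.54% of all genes were called, 2 of 24 other inflammatory genes and 2 of 9 receptors of the members rose, 2 of 12 decay factors fell, and none was called of 17 NF-kappaB genes, 16 of the IL-1, TNF and Toll-like pathways, 11 of the IL-6 pathway and 10 of prostaglandin synthesis. The alarmin gene Il33 rose by 1.41 (adjusted p = 0.00928) and the interleukin-6 family gene Lif by 0.94 (0.0166), the integrin genes Itgb5 and Itgb1 rose by 0.61 and 0.59, and the decay factor genes Khsrp and Zfp36l1 fell by 0.41 and 0.57. In shYthdf3, where 5.26% of all genes were called, 3 of the 24 inflammatory genes rose and 2 fell, 1 of 17 NF-kappaB genes rose, 2 of 9 receptors fell, and none was called in the other 4 lists. Il33 rose by 1.75 (0.00139), Cxcl12 by 1.32 and the NF-kappaB inhibitor gene Nfkbia by 0.82 (0.0262), while the metalloproteinase gene Mmp3 fell by 1.07, Vcam1 by 0.69 and Cd44 by 0.74. Itgb1 was at 329.8 TPM in shYthdf3 and 310.6 TPM in shLuc (adjusted p = 0.385). In shYthdf2 MEFs, where 1.46% of all genes were called, 2 of 18 inflammatory genes and 1 of 7 receptors rose, 1 of 9 prostaglandin genes fell, and none was called in the other 4 lists. There complement gene C3 rose by 1.29 and Vcam1 by 0.88, beside the called fibroblast markers Postn (1.39), Dcn (0.75) and Lum (0.99), whose list summed to 6431.66 to 6606.02 TPM against 4392.74 to 4534.69 TPM in shLuc. The part of that shift in the Saa3 and Il6 values was not tested. In the time course Laptm5, of the macrophage list, was called in shYthdf2 (54.64 against 25.99 TPM) as 1 of 14 tested. This gene also reached 80.71 TPM in the cell line libraries.

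Genes whose pattern was most like each member were ranked by Pearson correlation of group means over 23 groups of the RNA table, among 16236 genes. All share the contrast between fibroblast-derived and pluripotent groups and the same libraries, so the values are descriptions. For Ccl7 they were Col3a1 (0.992), Cd24a (0.991) and Hoxc6 (0.99), and for Ccl2 Grina (0.988), Foxc1 (0.988) and Cpq (0.987). The matrix gene Postn came first for Cxcl1 (0.956), Gas1 for Cxcl5 (0.967), Cavin2 for Ptgs2 (0.984), Tmeff2 for Il1rn (0.984) and Tpm2 for Il6 (0.9). Ubald1 came first for Spp1 (0.914), Unc119 for Saa3 (0.891) and Naip2 for Lcn2 (0.949). Among the members themselves, the correlation over the same groups was 0.97 for Ccl2 with Ccl7, 0.96 for Ccl7 with Ptgs2 and 0.9 for Ccl2 with Ptgs2. That of Il6 was 0.72 with Ptgs2 and 0.69 with Cxcl1, and that of Saa3 with Il1rn was -0.6.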

How the data were processed

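The authors deposited TPM per gene for 70 RNA libraries in 2 tables, and peak positions, with no height or p-value, for 12 ATAC-seq libraries and 1 TEAD2 ChIP-seq library. Per the submitters' processing notes the tools included RSEM, Bowtie2, SAMtools, MACS2 and deepTools on build mm10. No version or setting is stated in the sources used here. Spike-in values in 24 per-sample columns matched no sample by name and were not used. TPM holds no read total, so depth and counting error are unknown.

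From the deposited TPM, log2(TPM + 1) was fitted with limma 3.58.1 in R 4.3.3, with 1 mean per group, a trended prior and two-sided tests. The filter kept genes that reached 1 TPM in 2 or more libraries, and p-values were adjusted by Benjamini-Hochberg over all genes of a fit: time course (24 libraries, 21303 genes), cell lines (18, 17985), Tead2 (4, 14783) and lifetime (24, 19290). A joint fit of time course and cell lines (42, 23113) and the Ccl2 to Ccl7 ratio were added after the values were seen. In all 31 comparisons were made. On simulated data with 200 changed genes, the shYthdf2 mean of 4 days over 21303 genes recovered 59 of 100 genes changed by a log2 of 1 and 93 of 100 changed by 2.

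Same-numbered libraries deviated together in the time course (correlation of deviations from group means 0.276 to 0.497) and the lifetime experiment (0.122 to 0.388), so replicate number was read as a pairing there, from the data and not from the labels. Alternatives were no filter, a pseudocount of 0.1 TPM, median-ratio scaling, the replicate block and leaving out each library.

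The members, gene lists and marker lists were chosen with earlier results of these data known. Text names the members, the hairpin targets, the genes most like each member, and from each list up to 4 called genes of smallest adjusted p and genes at 100 TPM or more. Il6 persistence and the ratio were singled out after their values were seen. Promoters came from RefSeq on GRCm38.p6, and the peak calls are the authors', 1 list per library.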

Additional observations from a re-analysis of the deposited data

Results flagged for a closer look

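The effect of the Ythdf2 hairpin on Spp1 differed between the time course and MEFs, by -1.57 ± 0.276 on the log2 scale (limma, adjusted p = 0.0114, the only one of 6 tested changes of a hairpin effect across days or cell types in which a member was called). The joint fit behind it was added after the values were seen. The call was lost without either MEF library of shLuc (a difference of -1.59 and -1.54) or of shYthdf2 (-1.53 and -1.61). Spp1 lay below shLuc in 8 of 8 same-numbered pairs of the time course, and in MEFs it was at 1070.38 and 1013.23 TPM under the hairpin beside 1153.08 and 1110.28 TPM in shLuc. Ythdf2 itself fell by 1.60 in the time course and was at 16.9 against 29.02 TPM in MEFs, a difference of -0.76 that did not pass the test (adjusted p = 0.071). The difference between these 2 Ythdf2 effects was -0.84 ± 0.484 (adjusted p = 1). MEFs and reprogramming cells also differed in medium and in the factors given, and these cannot be told apart from the change of effect.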

How the results depend on the processing

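No result reversed. Over all comparisons, median-ratio scaling left 290 member results on the same side of the threshold, gained 2 and lost 5, no filter on low values left 295 and lost 2, a pseudocount of 0.1 TPM left 293, gained 1 and lost 3, the replicate block left 280, gained 16 and lost 1, and leaving out 1 library left 2278, gained 12 and lost 50. The count of called members moved by more than 1.5 times in these cases, and the cause was not tested. With the replicate block it was 6 for day 7 against day 1 in shLuc, 3 for day 3 against day 1, 1 each for day 5 against day 3 and day 7 against day 5, 2 for shYthdf2 over 4 days, 3 and 2 for actinomycin D at 4 h and 8 h, and 2 in each knockdown arm in DMSO. In the cell lines and the Tead2 experiment same-numbered libraries did not deviate together (correlations of -0.126 to 0.074, and -0.0223), and there the block lost 1 call, leaving 0 for shYthdf2 against shYthdf3 in MEFs (Il6, adjusted p = 0.058). With no filter it was 0 for day 3 against day 1. With a pseudocount of 0.1 TPM it was 1 for day 7 against day 5, 1 for shYthdf2 in MEFs and 0 between the MEF knockdown arms. With median-ratio scaling it was 0 between the MEF knockdown arms, 1 (Il6, adjusted p = 0.0498 beside 0.0523) for the ES minus MEF difference of the shYthdf2 effect, and 0 for actinomycin D at 4 h and at 8 h. The other counts moved by less or not at all.

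Leaving out 1 library gave 2 to 3 called members for day 7 against day 1, 0 to 1 for day 3 against day 1, 1 to 2 for shYthdf2 and 1 to 3 for shYthdf3 over 4 days, 1 to 2 for iPS against ES, 0 to 2 for shYthdf2 in MEFs (1 without its second library, where Lcn2 had an adjusted p of 0.0188), 0 to 1 between the MEF knockdown arms, for shYthdf3 in iPS cells and for the ES minus MEF differences of either effect, 0 to 2 for shTead2, 0 to 1 and 1 to 2 for actinomycin D at 4 h and 8 h, and 0 to 1 for the time course minus MEF difference of either effect. The difference from shLuc in the log2 ratio of Ccl2 to Ccl7 over the time course stayed between -0.87 and -0.61 for shYthdf2 and between -0.72 and -0.46 for shYthdf3, with no call lost. Genes listed at 0 in whole groups, such as Lcn2 in the time course, limit what a difference of log2(TPM + 1) can show. With 2 libraries per group, each call rests on a spread pooled over the groups of a fit.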
